A study of Mus musculus with 6 samples.

Results

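Of the 6 RNA-seq libraries made from postnatal day 6 (P6) mouse retinas, the 2 numbered 3 in their titles, 1 from an Lhx4-null mouse and 1 from a control mouse, were set against the 4 numbered 1 and 2. The split was chosen by the measured values themselves, because null 3 and control 3 stood apart together, so the difference between number 3 and numbers 1 and 2 is a description and carries no test. Only the question of whether that difference was of unequal size in the 2 genotypes was tested. The 3 null libraries came from Lhx4 tdT/loxP; Six3-Cre mice, which carry 1 tdTomato knock-in allele of Lhx4 and 1 loxP allele that Cre deletes in the developing retina. The 3 control libraries are labelled control with no further genotype. Strain was C57BL/6J; 129S6 mixed background for both, the age was P6 for both, and each library held the retinas of 1 mouse after the pigment epithelium had been removed. The mixed background leaves alleles of both parental strains segregating between mice, and neither litter, dissection day nor library batch is given with the replicate numbers, so developmental stage, dissection and library preparation cannot be told apart within number 3.

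In the first postnatal week the mouse retina nears the end of neurogenesis. The last progenitors, which divide at the outer margin of the tissue, leave the cell cycle and become rods, bipolar cells and Müller glia, while cones, horizontal and ganglion cells are born before birth. A new rod first turns on its transcription factors, such as Crx, Nrl and Nr2e3, and only later builds up the proteins of phototransduction, and bipolar cells assemble their glutamate receptor cascade later still. A whole-retina transcriptome therefore holds genes of dividing cells, of young neurons and of maturing neurons side by side.

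All values are FPKM, in which a gene's fragments are divided by transcript length and by the mapped fragments of that library, and a difference is on the log2(FPKM + 0.5) scale, number 3 minus numbers 1 and 2, with the limma standard error from a fit with genotype as covariate. Of 21995 rows, 13175 had a mean of at least 0.5 FPKM and were compared. A row was called higher or lower where it differed at least 2-fold on that scale within each genotype and where both libraries numbered 3 lay outside the range of the other 4. That gave 152 rows called higher (1.15%) and 28 called lower (0.213%). Both libraries numbered 3 lay above all others in 19.4% of rows and below all others in 17.7%. A difference in the same direction in both genotypes was more frequent still, with 35.9% of rows higher in both and 35.2% lower in both. With the libraries scaled to the same total the counts were 119 higher and 45 lower, and that scaling moved the median of all rows to -0.10, against -0.0020. Without null 3, when control 3 alone decided a call, 258 were called higher and 169 lower, and without control 3 these counts were 226 and 48. Next to the 2-fold limit stood a second row named Junb, with differences of 1.004 in the nulls and 1.03 in the controls, inside it, and Chek1, with 0.996 and 1.02, just outside. On the lower side Pde6b was just inside (-1.001 and -1.22) and Vwf just outside (-0.995 and -1.17).

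The 2 genotypes gave similar differences, but the split was chosen because null 3 and control 3 stood apart together. The correlation, the shared signs and the separation of libraries given here restate that choice and are a description only. Across the 13175 rows, which are not independent of each other, the difference in the nulls and that in the controls had a Pearson r of 0.675, and 71.2% of rows had the same sign in both. The median absolute difference was 0.17 and the median residual SD 0.12 (3 residual degrees of freedom). A first principal component held 50.9% of the variance and separated null 3 and control 3 from the other libraries, and the second, with 18.8%, separated the genotypes. The total FPKM was 428693 and 429668 in null 3 and control 3, against 386567 to 411204 in the other 4. Lhx4 itself had 25.8 FPKM in null 3 and 19.3 FPKM in control 3, against 28.2 and 28.3 FPKM in null 1 and 2 and 17.98 and 18.1 FPKM in control 1 and 2. Its level was higher in every null than in every control library, in number 3 as in the others. For this gene null 3 and control 3 went with their labels, whereas for Wasf2, Kcnj13 and Nhej1, given with the interaction, null 3 lay with the controls numbered 1 and 2 and control 3 with the nulls. A gene-level value does not show which exons the transcripts hold and is no check of the deletion.

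**Figure D1:**
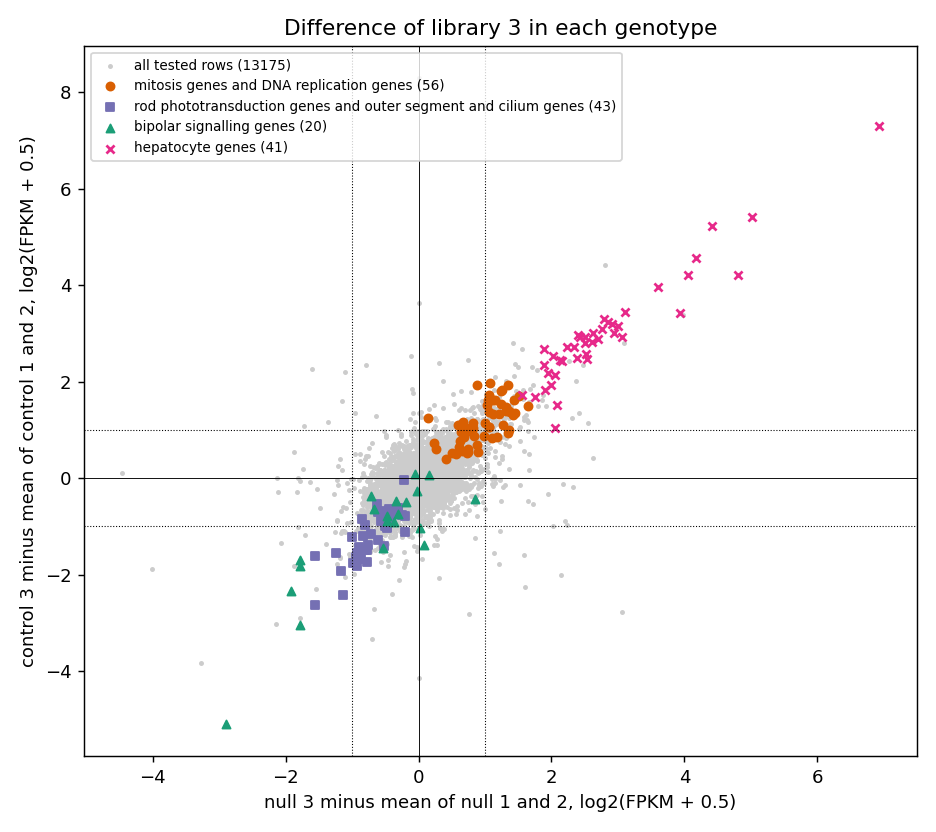
Difference of null 3 from null 1 and 2 (x axis) and of control 3 from control 1 and 2 (y axis), log2(FPKM + 0.5), for 13175 rows in grey and for members of 6 gene lists in colour. Dotted lines mark 2-fold differences. Cell cycle genes lie to the upper right, rod and bipolar genes to the lower left, and hepatocyte genes farthest to the upper right, up to 6.92 and 7.29 for Alb.

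The promoters of 4 genes at the ends of the comparison are shown because cell cycle genes and photoreceptor genes are known to carry different short motifs near their start sites. The sequences are from RefSeq on GRCm38.p6, 250 bases before to 50 bases after the start, and are written 5′ to 3′ on the strand of the gene. Capitals mark matches on either strand to an E2F-type motif (TTNNCGC with C or G at each N), to the cell cycle homology region CHR (TTTGAA), to CCAAT, or to a CRX-type motif (TAATCC). Cdk1 and Top2a were among the mitosis genes higher in number 3, Sag (rod arrestin) was lower, and Grm6 had the largest negative difference of all rows. 
Cdk1, chr10:69352863-69353162, minus strand: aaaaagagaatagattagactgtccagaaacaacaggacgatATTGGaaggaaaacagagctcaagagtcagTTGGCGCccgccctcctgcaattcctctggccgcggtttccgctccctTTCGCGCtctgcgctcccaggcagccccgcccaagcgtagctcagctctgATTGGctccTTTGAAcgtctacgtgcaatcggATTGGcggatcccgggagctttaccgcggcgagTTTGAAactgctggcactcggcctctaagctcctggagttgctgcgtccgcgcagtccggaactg
Top2a, chr11:99024140-99024439, minus strand: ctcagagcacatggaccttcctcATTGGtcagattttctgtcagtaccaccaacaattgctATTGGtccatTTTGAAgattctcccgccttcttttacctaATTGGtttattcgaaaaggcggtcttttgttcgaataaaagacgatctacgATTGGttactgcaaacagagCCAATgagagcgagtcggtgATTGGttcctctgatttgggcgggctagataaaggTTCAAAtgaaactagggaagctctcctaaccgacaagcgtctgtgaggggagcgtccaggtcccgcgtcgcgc
Sag, chr1:87803430-87803729, plus strand: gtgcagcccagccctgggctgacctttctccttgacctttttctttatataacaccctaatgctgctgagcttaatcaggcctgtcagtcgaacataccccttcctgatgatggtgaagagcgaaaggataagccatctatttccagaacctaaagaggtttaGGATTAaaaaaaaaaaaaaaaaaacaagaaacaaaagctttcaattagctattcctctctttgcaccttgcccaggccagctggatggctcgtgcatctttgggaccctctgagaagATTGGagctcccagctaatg
Grm6, chr11:50850435-50850734, plus strand: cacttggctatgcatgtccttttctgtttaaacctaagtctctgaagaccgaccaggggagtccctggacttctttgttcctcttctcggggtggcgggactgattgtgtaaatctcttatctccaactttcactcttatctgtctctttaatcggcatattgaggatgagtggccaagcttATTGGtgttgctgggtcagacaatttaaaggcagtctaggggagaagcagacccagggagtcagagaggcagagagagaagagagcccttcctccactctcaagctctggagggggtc
The Cdk1 promoter held 2 E2F-type matches, 2 CHR matches and 3 CCAAT matches, and that of Top2a 2 CHR and 6 CCAAT matches. Sag had 1 CRX-type match and 1 CCAAT, and Grm6 held a single CCAAT and no match to the other 3 motifs.

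Motif shares differed between lists. A CHR match stood in 18 of 24 promoters of mitosis genes (75%), against 11.1% of 10015 promoters of compared rows and 18.1% of all 27025 promoters. E2F-type matches were in 13 of 23 promoters of DNA replication genes (56.5%), against 17.3% of compared rows and 9.69% of all promoters. CRX-type matches were in 8 of 14 promoters of rod phototransduction genes (57.1%) and in 5 of 20 of outer segment genes (25%), against 5.42% and 7.16%. Of the 152 rows called higher, 111 had a promoter in the table, and 51.4% of these held an E2F-type or CHR match, against 26.7% of compared rows. Without the hepatocyte genes, which are described with the other tissues, the share was 64.2%. Among rows called lower, 2 of 19 promoters (10.5%) held a CRX-type match. A CHR match also stood in 6 of 17 promoters of bipolar signalling genes (35.3%), which were lower in number 3, and CCAAT was in 55.9% of promoters of rows called higher and 52.6% of those called lower, against 39.1% of compared rows. Over all compared rows the motif went with little difference. Rows with an E2F-type or CHR match had a median of 0.02 (n = 2678), and those without had a median of -0.01 (n = 7337). A match is a description of the letters only.

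Genes of dividing cells were higher in both libraries numbered 3. All 29 mitosis genes on the list were higher in both genotypes and above every other library, against 35.9% and 19.4% of all rows. Of the 29, 18 were called, against 1.15% of all rows. The median difference of the list was 1.18, against -0.0020 for all rows. Because these are whole retinas, more dividing cells and more RNA per dividing cell cannot be told apart. Cdk1, the kinase that drives entry into mitosis, had 19.98 FPKM in null 3 and 27.5 FPKM in control 3, against 7.78 and 7.32 FPKM in null 1 and 2 and 5.29 and 8.84 FPKM in control 1 and 2, a difference of 1.64 ± 0.20. Top2a, a topoisomerase that untangles sister chromatids, had 34.1 and 37.1 FPKM in null 3 and control 3, against 10.8, 12.5, 9.17 and 13.4 FPKM in the other 4. Both genes were thus about 3 times as high in number 3, with no overlap. Ube2c, which helps to mark mitotic cyclins for destruction, had 26.4 and 24.5 FPKM in null 3 and control 3, against 7.74 to 9.06 FPKM elsewhere. Aurkb, a kinase of the chromosomal passenger complex, had 9.87 and 14.2 FPKM in null 3 and control 3, against 3.60 to 3.97 FPKM elsewhere. Ccna2, the cyclin of S phase and G2, missed the 2-fold limit in controls, with 29.5 and 27.3 FPKM in null 3 and control 3, against 9.80, 12.9, 12.9 and 14.99 FPKM in the other 4 and a difference of 1.15 ± 0.14. Summed over the 29 genes, the level was 363 and 368 FPKM in null 3 and control 3, against 129 to 168 FPKM elsewhere.

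DNA replication genes followed with smaller differences. All 27 compared members were higher in both genotypes and above the range of the other 4, against 35.9% and 19.4% of all rows. The median was 0.83, and 8 of 27 were called, against 1.15% of all rows. Uhrf1, which couples DNA methylation to replication, had 8.13 FPKM in null 3 and 12.3 FPKM in control 3, against 3.54 and 2.74 FPKM in null 1 and 2 and 2.69 and 3.61 FPKM in control 1 and 2 (1.54 ± 0.18). Rrm2, the ribonucleotide reductase subunit that supplies deoxynucleotides, had 13.5 and 21.6 FPKM in null 3 and control 3, against 6.70, 5.65, 4.32 and 6.08 FPKM in the other 4. Control 3 was the higher of the 2 libraries for both genes, and the difference was larger in the controls for 22 of 27 members. Tk1, thymidine kinase, had 11.5 and 18.7 FPKM in null 3 and control 3, against 4.60 to 6.19 FPKM elsewhere, and the origin licensing factor Cdc6 had 1.52 and 2.95 FPKM in null 3 and control 3, against 0.301 to 0.608 FPKM elsewhere. The replication clamp Pcna, one of the most abundant members, differed by 0.83 ± 0.10, with 77.3 and 94.1 FPKM in null 3 and control 3, against 44.2 to 52.7 FPKM elsewhere. The helicase subunit Mcm7 had the smallest difference on the list, 0.40 ± 0.07, and still did not overlap (69.3 and 65.4 FPKM in null 3 and control 3, against 49.4 to 53.4 FPKM elsewhere). Of the regulators of cell cycle exit 12 of 15 were higher in both genotypes (80%, against 35.9% of all rows) and 2 lower in both. Of the 15, 9 lay above every other library, against 19.4% of all rows. The median was 0.30, and 1 was called, against 1.15% of all rows. The called member was the inhibitor Cdkn2c (16.3 and 16.01 FPKM in null 3 and control 3, against 5.51 to 7.09 FPKM elsewhere). Ccnd1, the cyclin D of retinal progenitors, had 162 and 173 FPKM in null 3 and control 3, against 86.6, 78.5, 64.3 and 85.2 FPKM in the other 4, a difference of 1.09 ± 0.12.

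Progenitor and neurogenic genes were higher as well. Of 29 members 26 were higher in both genotypes (89.7%, against 35.9% of all rows). Of the 29, 21 lay above every other library, against 19.4% of all rows. The median was 0.69, and 3 were called, against 1.15% of all rows. The 3 called genes belong to the Notch and proneural programme. Hes5, a Notch target that keeps progenitors undifferentiated, had 105 FPKM in null 3 and 124 FPKM in control 3, against 54.8 and 49.5 FPKM in null 1 and 2 and 49.8 and 64.00 FPKM in control 1 and 2 (1.06 ± 0.11). The Notch ligand Dll3 had 22.7 and 22.4 FPKM in null 3 and control 3, against 9.81, 10.4, 10.1 and 9.76 FPKM in the other 4 (1.13 ± 0.08). Atoh7, the proneural factor that makes progenitors competent to form ganglion cells, was low, with 1.87 and 6.10 FPKM in null 3 and control 3, against 0, 0.453, 1.20 and 0.644 FPKM in the other 4 (2.01 ± 0.29). Sfrp2, a secreted Wnt modulator, missed the limit in nulls, with 6.36 and 7.55 FPKM in null 3 and control 3, against 2.53 to 4.31 FPKM elsewhere. Insm1 and Sox4, the most abundant members, both of neurons as they leave division, differed by -0.02 ± 0.09 and 0.29 ± 0.11. The exception was Jag1, a Notch ligand, with 2.59 and 2.22 FPKM in null 3 and control 3, against 4.59 to 6.05 FPKM elsewhere and a difference of -0.96 ± 0.14. Outside this list, Ptf1a, which commits cells to amacrine and horizontal fates, had 2.71 FPKM in null 3 and 3.84 FPKM in control 3, against 0.481 and 0.675 FPKM in null 1 and 2 and 0.541 and 0.949 FPKM in control 1 and 2 and was the 1 amacrine gene called higher.

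**Figure D2:**
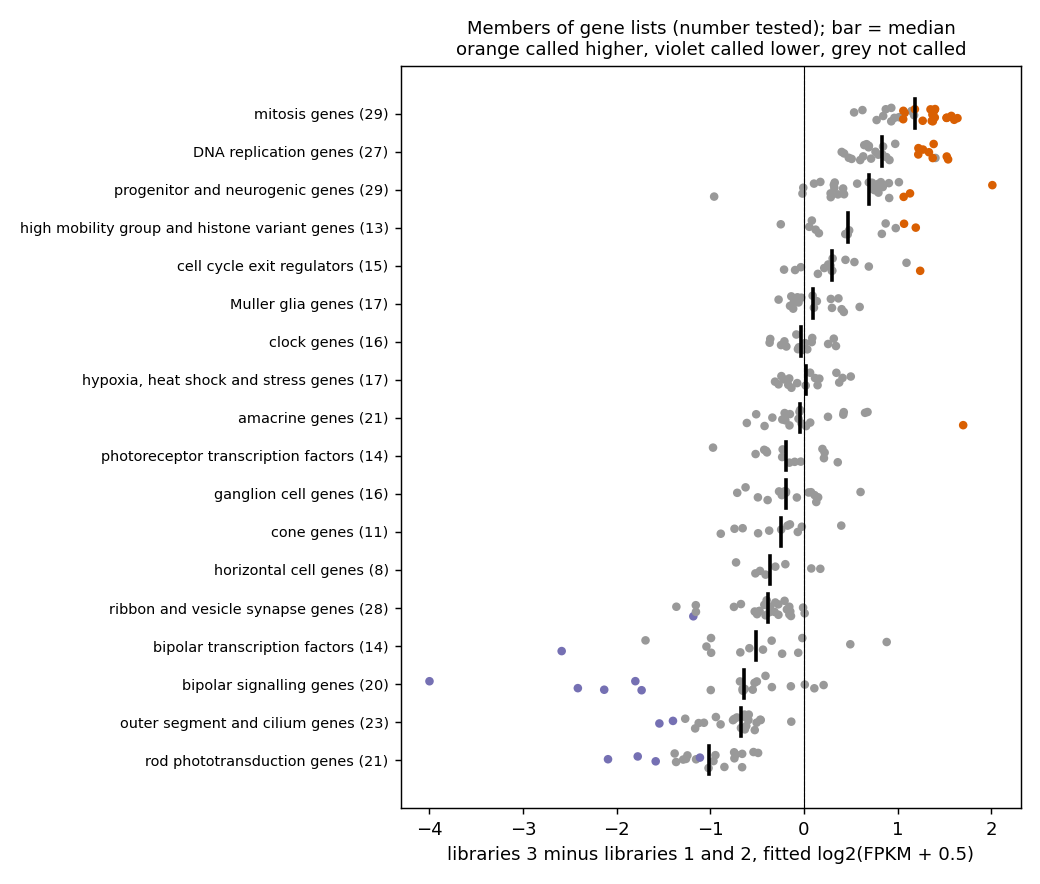
Fitted difference of libraries 3 from libraries 1 and 2, log2(FPKM + 0.5), for each compared member of 18 gene lists, 1 point a gene, with the number of members in brackets and a bar at the median. The median runs from 1.18 for mitosis genes to -1.02 for rod phototransduction genes.

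Most chromatin protein genes on the list went the same way. Of 13 high mobility group and histone variant genes 10 were higher in both genotypes (76.9%, against 35.9% of all rows). The median was 0.47, and 2 were called, against 1.15% of all rows. Hmgb2 had 98.7 and 102 FPKM in null 3 and control 3, against 41.2, 43.3, 37.3 and 53.8 FPKM in the other 4, and the linker histone H1fx had 105 and 120 FPKM in null 3 and control 3, against 46.2 to 66.96 FPKM elsewhere. H1f0, another linker histone, had 252 and 279 FPKM in null 3 and control 3, against 125 to 170 FPKM elsewhere (0.87 ± 0.13). These genes are not limited to dividing cells. Hmgn2, the most abundant, differed by 0.12 ± 0.10 and overlapped, with 1747 and 1660 FPKM in null 3 and control 3, against 1450, 1455, 1568 and 1798 FPKM in the other 4. Most genes listed as early temporal factors were higher by less. Of 7 early temporal factors 6 were higher in both genotypes (85.7%, against 35.9% of all rows), none was called, and the median was 0.36. Igf2bp1, an RNA-binding protein of fetal tissues, had 2.49 and 2.72 FPKM in null 3 and control 3, against 1.08 to 1.23 FPKM elsewhere (0.90 ± 0.13). The 1 member lower in both genotypes was Casz1 (-0.25 ± 0.11). The 5 late temporal factors, the Nfi family and Zbtb20, had a median of -0.01. Of these 2 were higher in both genotypes (40%) and 1 lower in both (20%), beside 35.9% and 35.2% of all rows. Zbtb20 had 3.69 and 3.28 FPKM in null 3 and control 3, against 7.96, 4.35, 4.57 and 4.78 FPKM in the other 4 (-0.53 ± 0.20). Nfib and Nfia lay above every other library, with differences of 0.32 ± 0.12 and 0.15 ± 0.11. Imprinted growth genes had a median of 0.15 over 11 members. Of these 4 were higher in both genotypes (36.4%) and 3 lower in both (27.3%), near the 35.9% and 35.2% of all rows. Among them Plagl1 had 40.3 and 40.7 FPKM in null 3 and control 3, against 18.9 to 30.7 FPKM elsewhere (0.79 ± 0.14), while Zdbf2 differed by -0.41 ± 0.12.

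Rod phototransduction genes were lower in both libraries numbered 3. All 21 members were lower in both genotypes and 20 of 21 lay below every other library, against 35.2% and 17.7% of all rows. The median was -1.02, and 4 of 21 were called, against 0.213% of all rows. Gnat1, the alpha subunit of rod transducin, was among the called genes and had 4.87 FPKM in null 3 and 3.57 FPKM in control 3, against 9.63 and 13.2 FPKM in null 1 and 2 and 21.9 and 20.5 FPKM in control 1 and 2 (-1.77 ± 0.26). Pde6a and Pde6b, the catalytic subunits of the phosphodiesterase that transducin turns on, were called as well. Pde6a had 3.46 and 4.80 FPKM in null 3 and control 3, against 10.2, 12.2, 17.6 and 13.9 FPKM in the other 4, with no overlap. The cation channel subunit Cnga1 missed the limit in nulls, with 19.4 and 12.9 FPKM in null 3 and control 3, against 35.1, 39.8, 47.4 and 47.1 FPKM in the other 4 (-1.38 ± 0.18). The abundant members differed by less. The phosducin gene Pdc, which binds transducin, had 814 and 860 FPKM in null 3 and control 3, against 1081 to 1466 FPKM elsewhere (-0.54 ± 0.10). Gnb1, the beta subunit of transducin, had 413 and 343 FPKM in null 3 and control 3, against 566 to 721 FPKM elsewhere (-0.74 ± 0.12), and Sag had 329 and 293 FPKM in null 3 and control 3, against 497 to 738 FPKM elsewhere (-0.95 ± 0.14). Pde6g, the inhibitory subunit of the phosphodiesterase, had 238 and 179 FPKM in null 3 and control 3, against 326 to 489 FPKM elsewhere (-0.97 ± 0.17).

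Genes of the outer segment and its cilium were lower along with them. All 23 compared members were lower in both genotypes and 21 lay below every other library, against 35.2% and 17.7% of all rows. The median was -0.67, and 2 were called, against 0.213% of all rows. Impg1, a proteoglycan of the matrix around outer segments, had 5.61 and 5.40 FPKM in null 3 and control 3, against 13.6, 14.3, 17.7 and 16.1 FPKM in the other 4 (-1.40 ± 0.11). Rdh8, a retinol dehydrogenase, and Rp1l1, of the axoneme, had 5.13 and 3.88 FPKM in null 3 and control 3, against 9.41 to 14.01 FPKM elsewhere, and 13.3 and 10.6 FPKM in null 3 and control 3, against 24.1 to 30.7 FPKM elsewhere. The disc rim protein Rom1 and the trafficking protein Unc119, both abundant, differed by -0.51 ± 0.12 and -0.46 ± 0.09.

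The transcription factors that set up photoreceptors differed less than phototransduction genes. None of 14 was called, 9 were lower in both genotypes (64.3%, against 35.2% of all rows), and the median was -0.19. Nrl, the factor that fixes rod identity, had 480 FPKM in null 3 and 461 FPKM in control 3, against 489 and 499 FPKM in null 1 and 2 and 568 and 664 FPKM in control 1 and 2, so null 3 and null 1 differed by less than control 1 and control 2. Both libraries numbered 3 still lay below the other 4, with differences of -0.04 in the nulls and -0.41 in the controls. Nr2e3, which acts with Nrl, had 575 FPKM in null 3 and 554 FPKM in control 3, against 673 and 692 FPKM in null 1 and 2 and 781 and 854 FPKM in control 1 and 2 (-0.40 ± 0.10), and Crx, which is needed for photoreceptor gene expression, differed by -0.23 ± 0.08. The widest differences were those of Esrrb (-0.97 ± 0.19, 1.64 and 1.62 FPKM in null 3 and control 3, against 2.67 to 4.43 FPKM elsewhere) and Thrb (-0.52 ± 0.14). Otx2, Prdm1 and Rorb, which act early in photoreceptor precursors, differed by 0.21 ± 0.09, 0.22 ± 0.11 and 0.20 ± 0.09. Rxrg, of young cones, differed by 0.36 ± 0.11. Cone genes were spread widely, with a median of -0.24 over 11 compared members. Of these 7 were lower in both genotypes (63.6%, against 35.2% of all rows) and none was called. The cone arrestin Arr3 had 3.56 FPKM in null 3 and 8.63 FPKM in control 3, against 7.19 and 5.26 FPKM in null 1 and 2 and 21.01 and 16.4 FPKM in control 1 and 2, and the cone phosphodiesterase Pde6c had 7.41 and 5.53 FPKM in null 3 and control 3, against 10.5 to 12.1 FPKM elsewhere. Gngt2, a cone transducin subunit, was the exception, with 791 and 727 FPKM in null 3 and control 3, against 485 to 641 FPKM elsewhere and a difference of 0.40 ± 0.11.

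**Figure D3:**
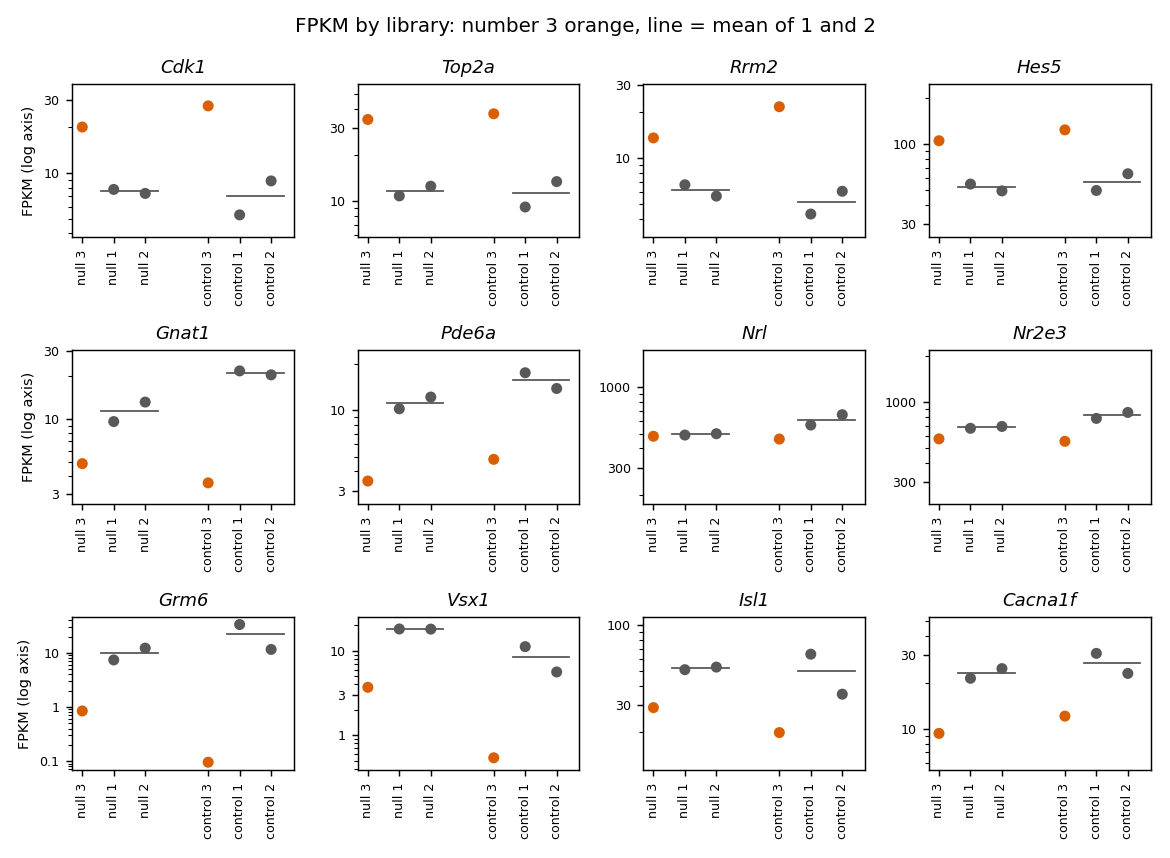
FPKM (log axes) in each library for 12 genes, nulls left and controls right, with number 3 in orange and a line at the mean of numbers 1 and 2. Cell cycle and Notch genes (top row) are high in number 3, Gnat1 and Pde6a are low while Nrl and Nr2e3 are lower by less (middle row), and bipolar and synapse genes (bottom row) are low, down to 0.0953 FPKM for Grm6 in control 3.

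Bipolar signalling genes were mostly lower in both libraries numbered 3. Of 20 compared signalling genes 15 were lower in both genotypes (75%, against 35.2% of all rows). The median was -0.64, and 5 were called, against 0.213% of all rows. The other 3 of 23 members, Gabrr2, Glra1 and Kcng4, were under the limit of 0.5 FPKM. The called genes were Grm6, Trpm1, Gpr179, Gabrr1 and Scgn. Grm6, the glutamate receptor by which ON bipolar cells sense photoreceptors, had 0.846 FPKM in null 3 and 0.0953 FPKM in control 3, against 7.43 and 12.3 FPKM in null 1 and 2 and 33.6 and 11.6 FPKM in control 1 and 2 (-3.998 ± 0.53). Control 1 was the highest library and control 3 the lowest, so the spread among controls was wider than that among nulls. Trpm1, the channel that this receptor closes, had 1.59 FPKM in null 3 and 1.08 FPKM in control 3, against 6.82 and 6.58 FPKM in null 1 and 2 and 9.01 and 2.76 FPKM in control 1 and 2. Gpr179, which anchors the cascade, had 2.34 and 1.47 FPKM in null 3 and control 3, against 8.61, 9.92, 8.79 and 3.85 FPKM in the other 4. Gabrr1, a GABA receptor of bipolar terminals, had 0.297 and 0.343 FPKM in null 3 and control 3, against 2.11, 2.98, 6.35 and 2.19 FPKM in the other 4, and the calcium sensor Scgn of cone bipolar cells had 0.645 FPKM in null 3 and 0.664 FPKM in control 3, against 3.09 and 3.82 FPKM in null 1 and 2 and 11.7 and 7.05 FPKM in control 1 and 2. Members in the middle of the list differed less, with Prkca, of rod bipolar cells, at -0.66 ± 0.10, Pcp2 at -0.65 ± 0.19 (8.65 and 9.54 FPKM in null 3 and control 3, against 10.8, 11.96, 23.4 and 14.6 FPKM in the other 4) and the G protein Gnao1 at -0.41 ± 0.09.

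The bipolar transcription factors split. Of 14 members 9 were lower in both genotypes (64.3%, against 35.2% of all rows), and the median was -0.51. Only 1 was called lower, against 0.213% of all rows. Vsx1, needed late in cone bipolar cells, had 3.70 FPKM in null 3 and 0.541 FPKM in control 3, against 18.2 and 18.1 FPKM in null 1 and 2 and 11.2 and 5.62 FPKM in control 1 and 2 (-2.59 ± 0.27). Isl1, of ON bipolar cells, had 28.99 and 19.9 FPKM in null 3 and control 3, against 51.2, 53.2, 64.6 and 35.5 FPKM in the other 4 (-1.04 ± 0.21). Bhlhe23, required for rod bipolar cells, had 0.196 FPKM in null 3 and 0.986 FPKM in control 3, against 0.626 and 0.584 FPKM in null 1 and 2 and 11.5 and 7.45 FPKM in control 1 and 2. Its level was lower in all 3 nulls than in control 1 and 2, and control 3 lay close to the nulls. Neurod4, a factor of bipolar precursors, and Irx5 went the other way, Neurod4 with 267 and 192 FPKM in null 3 and control 3, against 159, 157, 144 and 186 FPKM in the other 4 (0.49 ± 0.14) and Irx5 with a difference of 0.88 ± 0.12.

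Synapse genes were lower on a smaller scale. Of 28 ribbon and vesicle synapse genes 25 were lower in both genotypes (89.3%, against 35.2% of all rows) and none was higher in both. Of the 28, 19 lay below every other library, against 17.7% of all rows. The median was -0.38, and 1 was called, against 0.213% of all rows. The called gene was Cacna1f, the calcium channel of photoreceptor terminals, with 9.32 FPKM in null 3 and 12.1 FPKM in control 3, against 21.3 and 24.6 FPKM in null 1 and 2 and 30.97 and 22.9 FPKM in control 1 and 2 (-1.18 ± 0.13). The complexin Cplx4, the vesicular glutamate transporter Slc17a7 and the channel partner Cabp4, all of photoreceptor or bipolar terminals, differed by -1.36 ± 0.19, -1.15 ± 0.13 and -1.15 ± 0.25. The general synaptic genes Syp and Snap25 differed by -0.48 ± 0.09 and -0.14 ± 0.08. Genes of electrical maturation had a median of -0.18 over 14 members, none called. Among them the photoreceptor potassium channel gene Kcnv2 had 19.4 and 15.8 FPKM in null 3 and control 3, against 29.3 to 32.7 FPKM elsewhere.

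Receptor, transporter and channel pairs in which a mature member replaces a young one gave small differences for most members. Gabra2, an early GABA receptor subunit, differed by 0.31 ± 0.17. The chloride exporter gene Slc12a5 differed by -0.42 ± 0.13 and the early importer gene Slc12a2 by -0.11 ± 0.09. Grin2b, the young NMDA receptor subunit, was lower, with 1.32 and 1.09 FPKM in null 3 and control 3, against 2.28, 4.60, 1.40 and 1.40 FPKM in the other 4 (-0.65 ± 0.27), while Grin2a and Glra1 were under 0.5 FPKM on average and were not compared. Glra2 differed by 0.28 ± 0.10, Scn3a by -0.24 ± 0.11 and Scn1a by -0.02 ± 0.16. None of the 12 compared members was called, and their median was -0.20.

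Other retinal classes differed less and in both directions. Müller glia, which mature in the same days as rods and bipolar cells, had a median of 0.09 over 17 compared members, with none called, 8 higher in both genotypes and 4 lower in both (47.1% and 23.5%, against 35.9% and 35.2% of all rows). That median was -0.02 with the libraries scaled to the same total. Rlbp1, the retinal-binding protein of Müller glia, had 121 and 110 FPKM in null 3 and control 3, against 127, 118, 113 and 127 FPKM in the other 4, with the groups overlapping. Sox9, shared by progenitors and Müller glia, differed by 0.59 ± 0.10 and Dkk3 by 0.43 ± 0.07, while Crym, abundant, differed by -0.03 ± 0.08. Amacrine genes had a median of -0.05 over 21 members. Tfap2a, an early amacrine factor, had 28.2 and 37.8 FPKM in null 3 and control 3, against 18.7 to 23.8 FPKM elsewhere, and Gjd2, a gap junction gene, had 17.3 and 13.9 FPKM in null 3 and control 3, against 21.9 to 25.7 FPKM elsewhere. Ganglion cell genes had a median of -0.19 over 16, with the neurofilament genes lower (Nefh -0.71 ± 0.14, Nefm -0.49 ± 0.09) and Eomes higher (0.60 ± 0.10). Horizontal cell genes had a median of -0.36 over 8, with Lhx1 at 1.66 and 1.22 FPKM in null 3 and control 3, against 2.07 to 3.13 FPKM elsewhere. Astrocyte genes had a median of 0.18 over 6, among them Fabp7 at 500 and 642 FPKM in null 3 and control 3, against 301, 306, 342 and 447 FPKM in the other 4 and Gfap at 5.33 and 2.10 FPKM in null 3 and control 3, against 6.66, 5.12, 4.64 and 5.85 FPKM in the other 4.

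Lists that mark handling or physiology had medians near 0. The medians were -0.04 for 16 clock genes, 0.02 for 17 hypoxia, heat shock and stress genes, 0.08 for 10 p53 targets, -0.06 for 8 immediate early genes and 0.07 for 15 housekeeping genes. No member was called in any of the 5, beside 1.15% of all rows called higher and 0.213% called lower. At those shares lists of this size would hold few calls or none, so the absence of calls says little. Of the housekeeping genes 7 of 15 lay above every other library, against 19.4% of all rows, and the list summed to 6473 and 6529 FPKM in null 3 and control 3, against 5090 to 5648 FPKM in the other 4. Their median was -0.03 with the libraries scaled to the same total. Single members of these lists departed from the medians. Egr1, an immediate early gene, had 2.57 and 4.69 FPKM in null 3 and control 3, against 4.24, 5.25, 6.69 and 9.59 FPKM in the other 4, and Ppia and B2m, used as references, differed by 0.45 ± 0.08 and 0.60 ± 0.08. Gapdh differed by 0.00 ± 0.08.

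Transcripts of hepatocytes were present in both libraries numbered 3 and nearly absent from the other 4. A list of 49 hepatocyte genes, drawn up after these values were seen, had all 49 members higher in null 3 and control 3 than in any other library. Summed over the list the level was 274 and 329 FPKM in null 3 and control 3, against 10.5 to 18.7 FPKM in the others. Alb, serum albumin, had 61.4 FPKM in null 3 and 77.8 FPKM in control 3, against 0.0210 and 0 FPKM in null 1 and 2 and 0 and 0 FPKM in control 1 and 2. Ahsg, fetuin, had 15.7 and 20.6 FPKM in null 3 and control 3, against 0, 0, 0 and 0 FPKM in the other 4, and the apolipoprotein gene Apoa2 had 34.01 and 37.2 FPKM in null 3 and control 3, against 1.35, 0.323, 1.41 and 1.70 FPKM in the other 4. Genes of adult-type liver metabolism were among them, such as Cyp2e1 with 3.81 and 4.42 FPKM in null 3 and control 3, against 0.113, 0.138, 0 and 0 FPKM in the other 4, Cyp3a11 with 2.57 and 3.05 FPKM in null 3 and control 3, against 0, 0, 0 and 0 FPKM in the other 4 and the major urinary protein gene Mup3 with 1.54 and 2.39 FPKM in null 3 and control 3, against 0, 0, 0 and 0 FPKM in the other 4. Afp, the fetal albumin, was low throughout, with 0.207 and 0.207 FPKM in null 3 and control 3, against 0.0904, 0.0197, 0.0893 and 0 FPKM in the other 4. Of the 49 genes 43 were under 0.5 FPKM in all 4 libraries numbered 1 and 2, and 22 of these were listed at 0 in all 4. A few are also made in eye tissues, such as Trf (16.5 and 21.3 FPKM in null 3 and control 3, against 2.85 to 5.41 FPKM elsewhere) and Ttr (18.5 and 14.9 FPKM in null 3 and control 3, against 3.75 to 11.1 FPKM elsewhere).

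The 2 libraries held these transcripts in like amounts. For 37 genes over 1 FPKM in both and under 1 FPKM in the other 4, the ratio of control 3 to null 3 had a median of 1.27 and ran between 0.683 and 1.71. Among all rows, 48 were over 1 FPKM in both libraries numbered 3 and at least 5 times every other library, and 37 of these 48 were on the hepatocyte list. The list holds Serpina1a to Serpina1d, but Serpina1e was among the rest of the 48, so the list is not complete. The rest also included F2, Azgp1, H2-Q10 and Gsta3, and their tissue of origin was not tested. Genes of other organs, 18 in all, summed to 0.207 and 0.0205 FPKM in null 3 and control 3, against 0.114 to 0.225 FPKM in the other 4. Of the 152 rows called higher, 41 were hepatocyte genes and 26 were mitosis or replication genes. Without the hepatocyte and the sex-linked genes, an alternative added after these values were seen, 109 rows were called higher and 28 lower. Only listed genes were left out there, so rows such as H2-Q10 and Gsta3 stayed in. The 28 rows called lower and the mitosis and replication lists hold no gene of the hepatocyte or sex-linked lists. The part of the hepatocyte transcripts in any other difference was not tested.

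**Figure D4:**
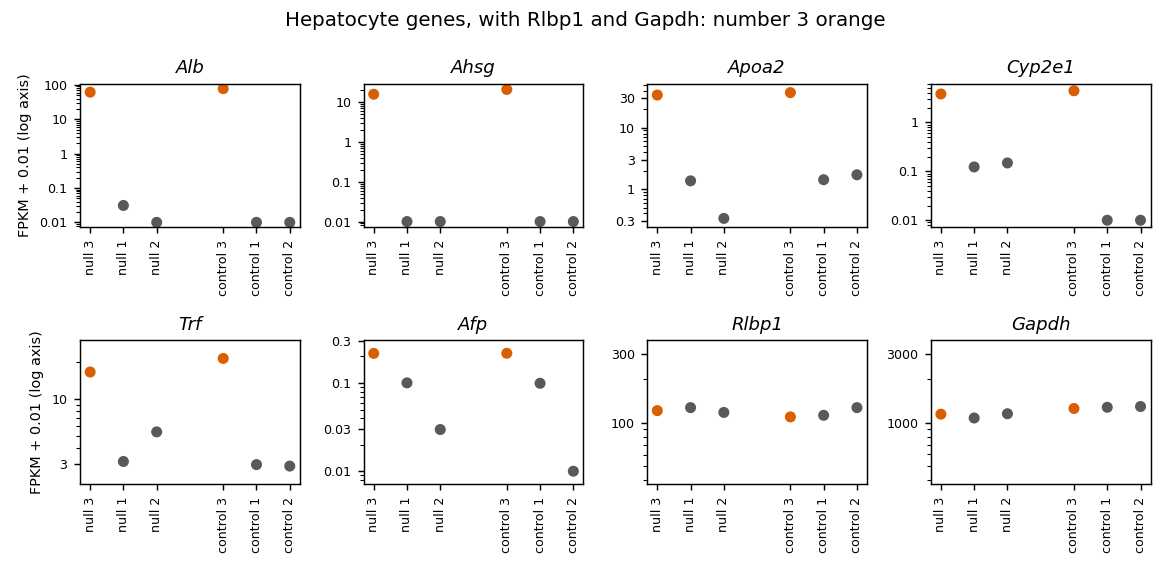
FPKM + 0.01 (log axes) in each library for 6 genes of the hepatocyte list and, for comparison, Rlbp1 of Müller glia and Gapdh, nulls left and controls right, number 3 in orange. Alb reached 61.4 and 77.8 FPKM in null 3 and control 3 while Rlbp1 and Gapdh differed little.

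Markers of the other tissues around the retina gave mixed values. Pigment epithelium and melanocyte genes had a median of 0.50 over 7 compared of 13 members, summing to 34.9 and 37.5 FPKM in number 3, against 16.1 to 29.8 FPKM. The 1 called member was Ttr, which the hepatocyte list also holds. Erythroid genes had a median of 0.76 over 5, with the adult beta globin gene Hbb-bs at 56.1 and 39.1 FPKM in null 3 and control 3, against 31.6, 27.1, 26.5 and 25.03 FPKM in the other 4. Endothelial and pericyte genes were mostly lower, with a median of -0.36 over 18 compared. Of these 13 were lower in both genotypes (72.2%, against 35.2% of all rows) and none was called. The pericyte gene Rgs5 had 8.18 and 3.75 FPKM in null 3 and control 3, against 11.7, 11.96, 11.8 and 9.65 FPKM in the other 4 and the vessel gene Kdr had 45.5 and 42.3 FPKM in null 3 and control 3, against 56.8, 50.8, 40.2 and 38.8 FPKM in the other 4. Lens genes had a median of 0.86 over 15, with 11 higher in both genotypes and none above every other library, and summed to 66.3 and 20.3 FPKM in null 3 and control 3, against 16.3 to 72.1 FPKM in the other 4. Cryaa had 10.4 FPKM in null 3 and 1.47 FPKM in control 3, against 0 and 7.98 FPKM in null 1 and 2 and 0.707 and 0 FPKM in control 1 and 2, and null 2 lay between null 3 and control 3. Cryab, a small heat shock protein that the retina also makes, was called lower, with 4.96 and 2.77 FPKM in null 3 and control 3, against 9.39, 12.4, 10.95 and 7.61 FPKM in the other 4. Microglia genes had a median of 0.21 over 14. Y-linked genes separated both libraries numbered 2 from the rest, with Ddx3y at 26.6 and 23.3 FPKM in null 3 and control 3, against 19.2, 0.0142, 21.6 and 0.0284 FPKM in the other 4. Ddx3y and Kdm5d met the call rule with the mean of numbers 1 and 2 taken over a library with these transcripts and one without. The part of each of these in the other differences was not tested.

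Beyond the lists, 74 rows called higher and 14 called lower were on none of them. By size of change, Pbk, a mitotic kinase, had 23.6 and 25.6 FPKM in null 3 and control 3, against 6.60, 7.04, 5.29 and 7.63 FPKM in the other 4 (1.83 ± 0.14), Mt2, a metallothionein, had 105 and 60.1 FPKM in null 3 and control 3, against 21.1, 20.7, 20.1 and 31.4 FPKM in the other 4 (1.77 ± 0.24), and Apoc1, an apolipoprotein of liver and macrophages, had 24.98 and 32.97 FPKM in null 3 and control 3, against 8.83, 9.06, 7.82 and 6.64 FPKM in the other 4 (1.78 ± 0.15). Chosen after their values were seen, Foxm1, the transcription factor of mitotic genes, had 9.75 and 9.17 FPKM in null 3 and control 3, against 2.75 to 4.26 FPKM elsewhere, and E2f8, which represses S phase genes, had 3.17 and 4.07 FPKM in null 3 and control 3, against 0.767 to 1.17 FPKM elsewhere. Also among the 74 were Igfbp2, an IGF-binding protein, at 70.5 and 94.3 FPKM in null 3 and control 3, against 29.4 to 44.3 FPKM elsewhere, and the optic cup factors Foxd1 and Vax1, at 4.45 and 5.15 FPKM in null 3 and control 3, against 1.37 to 2.57 FPKM elsewhere, and 2.76 and 3.77 FPKM in null 3 and control 3, against 0.372 to 1.15 FPKM elsewhere. Among those called lower, Kcnma1, the BK potassium channel, had 5.48 and 2.99 FPKM in null 3 and control 3, against 13.1, 12.9, 12.3 and 8.79 FPKM in the other 4 (-1.41 ± 0.16), Susd3 had 3.71 and 3.10 FPKM in null 3 and control 3, against 7.87 to 15.6 FPKM elsewhere and Nxnl1, a rod-derived factor for cone survival, had 11.3 and 11.3 FPKM in null 3 and control 3, against 23.3 to 37.7 FPKM elsewhere. Ece1, endothelin-converting enzyme, had 177 FPKM in null 3 and 31.5 FPKM in control 3, against 744 and 502 FPKM in null 1 and 2 and 310 and 185 FPKM in control 1 and 2. The libraries of Ece1 differed about 4-fold among numbers 1 and 2 alone. Cldn34c1, a claudin of a multicopy family on X, had 0.202 and 0.0802 FPKM in null 3 and control 3, against 14.1, 2.65, 8.55 and 6.92 FPKM in the other 4.

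Short transcripts were higher in number 3. The medians by length come from the same values that chose the split and are a description only. Rows under 700 bases include 15 ribosomal protein genes and hepatocyte genes such as Apoa2 and Fabp1, and the medians were not taken without them. The median difference by the longest annotated transcript was 0.36 for rows under 500 bases (n = 54), 0.25 for 500 to 700 bases (n = 142), 0.12 for 700 to 1000 (n = 342), 0.08 for 1000 to 1500 (n = 894), 0.05 for 1500 to 2500 (n = 2370), -0.01 for 2500 to 5000 (n = 5939) and -0.07 for over 5000 bases (n = 3049). The order held in the nulls, where the medians ran from 0.51 for the shortest to -0.07 for the longest, and in the controls they ran from 0.17 to -0.09 with 0.18 for 500 to 700 bases. Rows with over 20 exons had a median of -0.10 (n = 1597), and those with 1 exon had 0.05 (n = 779). Among rows of at least 1500 bases 107 were called higher and 22 lower.

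**Figure D5:**
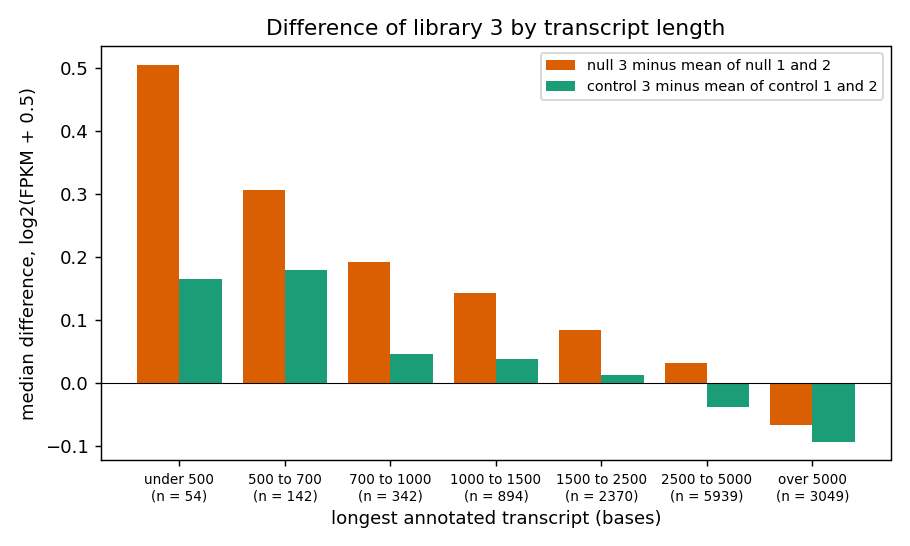
Median difference of null 3 from null 1 and 2 (orange) and of control 3 from control 1 and 2 (green), log2(FPKM + 0.5), by the length of the longest annotated transcript, with the number of rows in each bin. The medians run down with length, from 0.51 and 0.17 under 500 bases to -0.07 and -0.09 over 5000 bases.

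The ribosomal protein genes, which are short and abundant, had a median of 0.35 over 74 compared members. Of these 69 were higher in both genotypes (93.2%, against 35.9% of all rows). By the longest annotated transcript the median was 0.44 for 15 genes under 700 bases, 0.30 for 38 of 700 to 1500 bases and 0.37 for 21 of 1500 bases or more. The longest annotated transcript need not be the one present in the retina, so these bins do not sort the genes by the length of their mRNA. Rps27 had 3054 and 2916 FPKM in null 3 and control 3, against 1532, 1543, 1803 and 1935 FPKM in the other 4 and Rps29 had 1969 and 2098 FPKM in null 3 and control 3, against 1283, 1277, 1404 and 1628 FPKM in the other 4. The mitochondrially encoded genes differed among themselves, with a median of 0.51 over 13. The short genes mt-Nd3 and mt-Atp8 had 452 and 503 FPKM in null 3 and control 3, against 190, 124, 73.1 and 82.8 FPKM in the other 4, and 16030 and 17608 FPKM in null 3 and control 3, against 12863, 8249, 4259 and 6017 FPKM in the other 4, while mt-Co1 and mt-Cytb differed by 0.04 ± 0.12 and -0.03 ± 0.10. All but mt-Nd6 are read from the same strand, and mt-Atp8 and mt-Atp6 overlap. Hnrnph1, among the largest gains in FPKM, had 1851 FPKM in null 3 and 5297 FPKM in control 3, against 1189 and 1020 FPKM in null 1 and 2 and 2198 and 429 FPKM in control 1 and 2, and control 1 lay above null 3.

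Low values also grouped the libraries. Where values between 0.001 and 0.2 FPKM were compared, 2.98% of rows shared 1 common ratio (within 0.003 on the natural log scale) between null 3 and control 3, and between 2.49% and 7.83% did so in the 6 pairs within numbers 1 and 2. Across the 2 sets, in 8 pairs, the share was 0.927% to 1.25%. The shares within numbers 1 and 2 were uneven, with the 7.83% from null 2 with control 2 and at most 3.43% in the other pairs. A common ratio can arise where whole fragments are divided by the same effective length, and whether it did so here was not tested. The share was thus higher within the pair numbered 3 and within numbers 1 and 2 than in any pair across them.

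The size of the difference was then compared between the genotypes. With the limma interaction of genotype and number 3 over 13175 rows, 5 rows passed a Benjamini-Hochberg (BH) adjusted p of 0.05 (0.038%), and 820 rows (6.22%) had an unadjusted p under 0.05. With the replicate number as a block, which leaves 1 residual degree of freedom, 3 rows passed, and leaving out null 1, null 2 or control 2 gave 13, 9 and 2 rows. None of the 5 was on a gene list. Wasf2, an actin regulator, had 23.4 FPKM in null 3 and 4.93 FPKM in control 3, against 4.86 and 4.59 FPKM in null 1 and 2 and 8.93 and 10.1 FPKM in control 1 and 2, an interaction of 3.08 ± 0.20 (null minus control) and a limma BH-adjusted p of 0.024. Kcnj13, a potassium channel gene that overlaps Gigyf2 on the opposite strand, had 4.63 FPKM in null 3 and 0.0885 FPKM in control 3, against 0.203 and 0.0396 FPKM in null 1 and 2 and 3.24 and 3.82 FPKM in control 1 and 2 (adjusted p by limma 0.019), and Nhej1, of DNA end joining, had 1.70 FPKM in null 3 and 0 FPKM in control 3, against 0 and 0 FPKM in null 1 and 2 and 1.49 and 1.51 FPKM in control 1 and 2 (adjusted p by limma 0.024). In these 3 genes null 3 lay with the controls numbered 1 and 2, and control 3 with the nulls numbered 1 and 2. Gm10020, a processed pseudogene, was at 0.241 FPKM in null 3 alone and at 15.7 to 20.4 FPKM in all others, and Gm9805 was at 156 FPKM in control 3 and listed at 0 in the other 5 libraries.

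Rod genes fell short of that test. The difference was more negative in the controls than in the nulls in 62.0% of all rows. It was so for 20 of 21 rod phototransduction genes and 21 of 23 outer segment genes, with medians of -0.81 in the nulls and -1.28 in the controls for phototransduction and -0.51 and -0.85 for the outer segment. An unadjusted interaction p under 0.05 was reached by 13 of 21 and 10 of 23 of them, against 6.22% of all rows, and none passed the adjustment (lowest limma BH-adjusted p 0.57 and 0.58). For Gnat1 the difference was -1.13 in the nulls and -2.42 in the controls, and in numbers 1 and 2 Gnat1 was higher in both controls than in both nulls. Replication genes, which were higher in number 3, also had the larger difference in the controls, with medians of 0.74 in the nulls and 1.02 in the controls and 4 of 27 at an unadjusted p under 0.05. Mitosis genes had medians of 1.24 and 1.14, with 1 of 29. Of the 28 rows called lower, 19 had the larger decrease in the controls, and of the 152 called higher, 106 had the larger increase there, beside 62.0% of all rows more negative and 37.99% more positive in the controls, so the share among rows called lower was near that of all rows. With 1 library numbered 3 per genotype, a genotype's difference and that library's own cannot be told apart.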

How the data were processed

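RNA-seq was measured in 3 Lhx4-null and 3 control P6 retinas. The authors deposited 1 table of FPKM values per gene. Per the submitters' notes and the study's methods, reads were mapped with TopHat2 and quantified with Cufflinks on GRCm38. Their versions, the gene annotation and any strand setting were not given in the sources used here. Cufflinks shares fragments among overlapping genes and near-identical copies and models fragment length per library, so such genes and short genes are uncertain. The paper gives only a range of sequencing depth across its libraries, without the depth of each. Whole reads could not be recovered, so the counting error and depth of each library are unknown, and precision rests on the spread between mice. The table also held no sample columns left unused (0). Of its 21995 rows, 168 shared 76 repeated names, and 27 held a date in place of a name, 23 of which were compared without a name.

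The rows averaging 0.5 FPKM or more were fitted on log2(FPKM + 0.5) with limma 3.58.1 in R 4.3.3 (mean-variance trend). A fit with genotype and number 3 gave differences and standard errors, without p-values. A fit with their interaction was tested two-sided, with Benjamini-Hochberg adjustment and a threshold of 0.05. Because 0.5 is added, fold changes of weakly expressed genes come out too small. The limma fits were tested on simulated data first. GENCODE M21 on GRCm38 matched 97.1% of compared rows by symbol and gave positions, lengths and overlaps. Promoters came from RefSeq on GRCm38.p6, and the first entry per symbol was used. Tables and figures were made with Python 3.11.15.

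The split, the 36 gene lists and the tests were chosen with earlier results of these data known. Genes named were, per list, the 4 with the largest difference and the 2 with the highest mean, then the 12 called rows in each direction with the largest difference among those of at least 5 FPKM, the 6 largest changes in FPKM in each direction, all interaction calls, Lhx4 and the receptor pairs. The hepatocyte, other-organ, ribosomal protein and mitochondrial lists (4) and other genes were chosen after values were seen. Some genes that this rule names are not reported here. No gene set test was run. Alternatives were other pseudocounts (0.1 and 1), filters, scalings, a length limit, the replicate block, no trend and leaving out each library.

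The deviations of same-numbered libraries from their group means correlated across genes at 0.67 for number 3, 0.39 for number 1 and 0.26 for number 2. The value for number 3 is the Pearson r given above, from the values that chose the split, so it is no check of pairing. Each group mean includes number 3, so the deviations of numbers 1 and 2 carry part of its difference. Null 1 with control 2, of unlike number, was also positive (0.27). The difference between numbers 1 and 2 itself did not recur between genotypes (r = -0.00026), and null 2 correlated best with control 1 (0.38). Nothing in the labels says that a number marks a litter, batch or day.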

Additional observations from a re-analysis of the deposited data

Results flagged for a closer look

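The difference of library 3 was of unequal size in the 2 genotypes for 5 rows, by the limma interaction with Benjamini-Hochberg (BH) adjustment over 13175 rows. The values are the difference in the nulls minus that in the controls on the log2(FPKM + 0.5) scale. It was 3.08 for Wasf2, 5.83 for Kcnj13 and 4.14 for Nhej1, and -8.29 for Gm9805 and -4.56 for Gm10020. Over the alternatives that could be fitted, the limma BH-adjusted p ranged between 0.00043 and 0.035 for Gm9805, 0.00051 and 0.079 for Gm10020, 0.0018 and 0.13 for Kcnj13, 0.0048 and 0.12 for Wasf2, and 0.0098 and 0.078 for Nhej1. Each of these contrasts has 1 library numbered 3 per genotype, and what set these rows apart was not tested.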

How the results depend on the processing

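The count of rows called higher was 92 with a mean of at least 2 FPKM, against 152, and was within 1.5 times of it under the other settings that kept all libraries. Rows called lower were 49 with a pseudocount of 0.1 and 45 with the same total in each library, against 28. Leaving out 1 library at a time gave 133 to 258 rows called higher and 23 to 169 called lower. Both highest counts came without null 3, when control 3 alone decided a call, and without control 3 the counts were 226 and 48. Rows called for the interaction were 2 with no filter on low values, 1 with transcripts of at least 1500 bases, and 3 with the replicate block, against 5, and 2 to 13 without 1 of the libraries numbered 1 or 2. The lowest of these was without control 2 and the highest without null 1, with 9 without null 2. It could not be fitted without null 3 or control 3. Some list medians changed sign. With the same total these were young neuron genes (-0.0065, against 0.10), Müller glia (-0.018, against 0.09), p53 targets (-0.033, against 0.08) and housekeeping genes (-0.029, against 0.07). Müller glia also gave -0.028 with no filter and -0.043 with transcripts of at least 1500 bases. Cornea, muscle and connective tissue genes, 1 compared member, gave 0.16 with no filter, against -1.05. Medians within the spread between replicates of 0 also changed sign under some alternatives, those of hypoxia, heat shock and stress genes and of late temporal factors in 6 of 15 each and immediate early genes in 2. The lens median was not close to 0 and changed sign in 1 of 15 (-0.03, against 0.86, with transcripts of at least 1500 bases). No gene named in the text as called higher or lower changed sign in any of the settings run. The call rule largely fixes that outcome, so it is no check of the calls. A called row differed at least 2-fold within each genotype, with both libraries numbered 3 outside the range of the others. Leaving out 1 library or changing the pseudocount cannot reverse such a sign. The cause of the changes in counts and list medians was not tested. With 3 libraries per genotype and 1 numbered 3, no setting replaces a second library numbered 3.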
